A study of Homo sapiens with 4 samples.

Results

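Distal H3K27ac regions lying more than 10 kb and up to 100 kb from the gene start that the authors assigned to them numbered 39439 of 91107 distinct regions in A375 cells, or 43.3%. They were chosen by distance and width: no listing of the region had a distance of 0, the smallest distance was above 10000 and at most 100000 bases, and the region was under 8000 bases wide. Both values come from the authors' own regions and gene assignment, so distance and width are descriptions here, and so is the mean level, which rises with width. A375 is an established human melanoma cell line, grown in DMEM with serum. Chromatin immunoprecipitated with an antibody to H3K27ac was sequenced in 4 libraries: 2 of cells that received the vehicle, isopropanol, and 2 of cells that received 1 mM octanoate, the anion of a saturated fatty acid of medium chain length, each over 48 hours. The labels give 1 cell line and do not say whether the libraries of a group came from separate cultures.

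H3K27ac is the acetylated form of lysine 27 of histone H3. It marks the nucleosomes beside active promoters and active enhancers, the stretches of DNA that bind transcription factors and contact gene starts through looping of the chromatin. Acetyl groups are placed mainly by the coactivators EP300 and CREBBP from acetyl-CoA, removed by histone deacetylases, and read by bromodomain proteins. In melanocytic cells many distal enhancers are bound by lineage factors such as MITF and SOX10 or by AP-1 and TEAD factors.

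All values come from 1 comparison in the authors' deposited table, made with DESeq2 per the submitters' processing notes. Each region has a mean level, a log2 fold change with its standard error (SE), a p-value and an adjusted p-value. Single libraries have no values there, so their depth and the spread between replicates are unknown, and every error printed for a region is the SE of the authors' model. The header does not name the numerator of the fold change, so changes are called positive or negative and not gains or losses under octanoate. A call is a region with an adjusted p-value under 0.05. Genes are named as the authors assigned them to regions, which does not show that a region acts on its gene. Among the 9 markers of melanocytes and melanoma, SOX10, PMEL, MITF, PAX3 and S100B had a region at the start (mean levels of 773.5, 269.3, 98.4, 93.3 and 55.2 in the authors' deposited table), while DCT, MLANA, TYR and TYRP1 had none. Of the markers of other cell types, 0 of 7 for blood cells, 2 of 6 for hepatocytes, 2 of 7 for keratinocytes and 4 of 6 for fibroblasts had a region at the start. The highest of these were KRT10 at 128.8, TWIST2 at 44.4, DCN at 36.2, DSP at 26.1 and LUM at 24.4 in the authors' deposited table, and ALB, COL1A1, PDGFRA, KRT5 and KRT14 had none.

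Called distal regions that hold a gene start show what such sequence looks like. Of the 260 called members, 20 overlapped a start of the RefSeq tables (GRCh38.p14, the same assembly as the hg38 coordinates of the table): 14 overlapped the start of a long noncoding RNA and 7 that of a protein-coding transcript, 1 of them both. The 250 bases upstream of such a start are shown for the 4 noncoding starts whose regions had the smallest p-values, read 5′ to 3′ on the strand of the transcript. The regions were assigned to NEK2, PDE2A, RAI14 and BRINP2, and capitals mark motif matches on either strand, spelled out after the second set.
NTRAS, chr1:211639558-211639807, plus strand: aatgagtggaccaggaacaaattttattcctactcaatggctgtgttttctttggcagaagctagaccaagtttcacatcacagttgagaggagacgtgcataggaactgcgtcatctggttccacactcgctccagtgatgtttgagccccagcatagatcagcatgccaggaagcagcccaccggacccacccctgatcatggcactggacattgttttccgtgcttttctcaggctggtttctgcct
LINC01537, chr11:72570406-72570655, plus strand: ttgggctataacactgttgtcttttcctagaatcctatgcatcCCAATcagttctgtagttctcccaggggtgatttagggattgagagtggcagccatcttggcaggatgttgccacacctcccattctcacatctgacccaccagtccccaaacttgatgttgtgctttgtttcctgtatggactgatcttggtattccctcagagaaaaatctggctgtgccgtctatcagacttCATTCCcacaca
LOC105374721, chr5:34585588-34585837, plus strand: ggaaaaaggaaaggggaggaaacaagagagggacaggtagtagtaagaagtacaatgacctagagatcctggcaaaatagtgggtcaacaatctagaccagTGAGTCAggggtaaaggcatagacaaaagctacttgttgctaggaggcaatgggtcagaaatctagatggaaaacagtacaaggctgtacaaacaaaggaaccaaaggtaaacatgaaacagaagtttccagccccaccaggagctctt
LOC105371625, chr1:177256040-177256289, minus strand: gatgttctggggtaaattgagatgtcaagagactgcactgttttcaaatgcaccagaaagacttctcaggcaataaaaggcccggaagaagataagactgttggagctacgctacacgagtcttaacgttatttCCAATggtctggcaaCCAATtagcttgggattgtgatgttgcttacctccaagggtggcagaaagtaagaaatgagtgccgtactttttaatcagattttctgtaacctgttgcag
The NTRAS window lies in the largest of 4 called regions beside NEK2, and no searched motif was found in it. The window of LINC01537 held a TEAD and an NFY match, that of LOC105374721 an AP-1 match, and that of LOC105371625 a pair of NFY matches. GC content was 50, 47.2, 44.4 and 42.8%, respectively.

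The second set comes from called members over a protein-coding start that was not the start used for the deposited distance. RAP1GAP2, a GTPase-activating protein for RAP1, was listed 97527 bases away, SLC44A2, a choline transporter-like protein, 21914 bases away, and OLFM2, a secreted olfactomedin-domain protein, 21236 bases away, although RefSeq places a start of the same gene inside each region. The remaining region was assigned to SCARF1, 15642 bases away, and holds starts of SLC43A2, an amino acid transporter.
RAP1GAP2, chr17:2853434-2853683, plus strand: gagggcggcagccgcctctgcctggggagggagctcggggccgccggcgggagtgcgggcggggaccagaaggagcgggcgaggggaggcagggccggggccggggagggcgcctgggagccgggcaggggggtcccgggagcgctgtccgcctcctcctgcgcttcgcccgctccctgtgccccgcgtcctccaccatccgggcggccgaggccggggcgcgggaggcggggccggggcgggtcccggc
SLC43A2, chr17:1628417-1628666, minus strand: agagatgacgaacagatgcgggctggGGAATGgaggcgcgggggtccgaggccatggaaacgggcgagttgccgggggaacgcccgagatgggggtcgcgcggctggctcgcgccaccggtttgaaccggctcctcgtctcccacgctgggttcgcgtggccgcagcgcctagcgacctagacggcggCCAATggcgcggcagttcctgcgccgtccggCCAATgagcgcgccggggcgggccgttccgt
SLC44A2, chr19:10625303-10625552, plus strand: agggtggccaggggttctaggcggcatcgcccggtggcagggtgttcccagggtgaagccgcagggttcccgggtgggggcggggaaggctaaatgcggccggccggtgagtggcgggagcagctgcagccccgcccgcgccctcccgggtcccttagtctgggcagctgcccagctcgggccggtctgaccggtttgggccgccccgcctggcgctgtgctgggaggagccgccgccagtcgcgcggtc
OLFM2, chr19:9913802-9914051, minus strand: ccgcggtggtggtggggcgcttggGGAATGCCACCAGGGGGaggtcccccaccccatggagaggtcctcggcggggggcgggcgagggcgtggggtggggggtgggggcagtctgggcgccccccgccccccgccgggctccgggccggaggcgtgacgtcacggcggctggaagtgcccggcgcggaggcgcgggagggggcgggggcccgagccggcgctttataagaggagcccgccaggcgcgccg
These coding windows were GC-rich, at 83.2, 72.0, 75.2 and 80.4%, all above the 4 noncoding windows. SLC43A2 held a TEAD match and a pair of NFY matches, OLFM2 a TEAD match directly followed by a CTCF match, and the other two none.

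Motifs were searched on both strands in the 250 upstream bases of RefSeq starts, and none of the searched motifs contains another. They were TGANTCA for AP-1 and TCACGTG for the MITF and TFE E-box. They were also GGAATG for TEAD factors, ACAATGG for SOX factors, CCGGAAGT for ETS factors and CCAAT for NFY, with the CTCF core and the PPAR/RXR direct repeat of AGGTCA with a spacer of 1 base. The AP-1 letters were found in 10.6% of the 1486 windows lying wholly inside members, in 6.57% of all 35116 windows and in 3.61% of the 13770 windows inside regions at gene starts. The ETS letters ran the other way, with 2.76% of windows inside members, 3.42% of all and 7.18% inside regions at starts. The E-box was in 3.97% of windows inside members, 3.31% of all and 5.15% at starts. The TEAD letters were in 11.8, 11.9 and 8.83%, and the NFY letters, the commonest, in 30.0, 32.0 and 32.7%. The SOX letters were in 1.82, 2.62 and 1.33%, and the CTCF core in 0.269, 0.0997 and 0.0944%. The direct repeat was in 0 windows inside members, 6 of all windows and 2 at starts. Among the 21 windows inside called members, 6 held the TEAD letters (28.6%), 7 the NFY letters (33.3%) and 2 the AP-1 letters (9.52%). The SOX letters and the CTCF core were each in 1, and the E-box, the ETS letters and the direct repeat in 0. These windows are few, and some lie in the same region. Median GC content was 61.6% inside members, 58.0% over all windows and 66.0% at starts. These shares describe letters beside starts, not the bodies of the members, and differences between them were not tested.

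Most members were small and weak. Their median width was 727 bases (quartiles 318 and 1670), and their median mean level was 10.0 in the authors' normalized units (quartiles 4.68 and 25.8, range 0.443 to 364.5). Per kb of width the median level was 14.9, against 25.3 for the 10642 regions at gene starts and 14.0 for the 20917 regions at 100 to 500 kb. The authors' comparison gave an adjusted p-value to 13050 members, or 33.1%. The other 26389 had mean levels of at most 18.44 and cannot be called. Members with an adjusted p-value, called tested from here on, had a median level of 37.7 and a median width of 2257 bases. Width and testing went together: 3 of 15662 members under 500 bases were tested, 301 of 7671 at 500 to 1000 bases, 5048 of 8300 up to 2000, 5543 of 5639 up to 4000 and 2155 of 2167 above that. A count of called members is thus a statement about the wider and stronger part of the distal regions.

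Fold changes of the members were mostly positive. The median deposited log2 fold change of all 39439 members was 0.26, or a ratio of 1.20 (interval of the log2 median over regions, at 95%, 0.259 to 0.270), and 71.4% were positive (95% Wilson interval 71.0 to 71.8%). Over all 91107 regions the median was 0.28 with 73.7% positive. The tested members had a median of 0.31 (0.308 to 0.320) with 84.0% positive, and all 36436 tested regions had 0.32 with 87.3% positive. The members thus had nearly the median of all regions, and the intervals treat regions as independent and hold no error between libraries. A shift that all regions share cannot be told apart from a difference in scaling of the groups in this table. With the fold changes centred on the tested median of all regions (0.32), the median of all members was -0.059 and 44.4% were positive.

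Spread was wider in the distal regions than at starts. The log2 fold changes of tested members had an SD of 0.33 around a median SE of 0.31, so the spread over regions was close to the error the model gave a single region. At starts the SD was 0.21 around a median SE of 0.25, and 98.1% of the tested regions were positive. At 100 to 500 kb the SD was 0.36 around 0.32, and 78.0% were positive. Negative with an unadjusted p-value under 0.05 in the DESeq2 comparison were 63 of 13050 tested members and 0 of 9996 tested regions at starts. At 100 to 500 kb these were 74 of 6728, and over all tested regions 173 of 36436, or 0.475%. The members were thus near all tested regions in this count, and differences between classes were not tested.

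**Figure D1:**
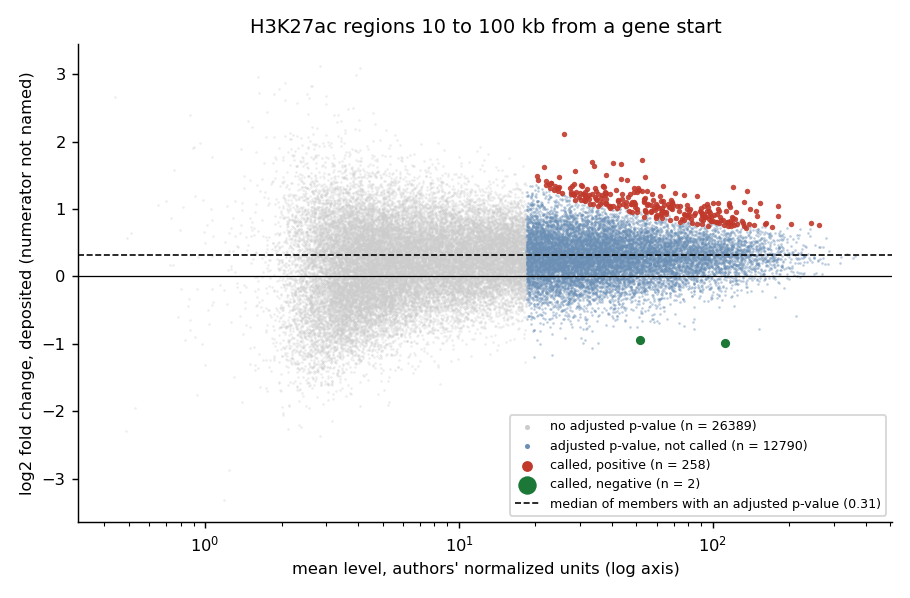
Log2 fold change (vertical axis) against mean level (horizontal log axis, authors' normalized units) for all 39439 members, with 26389 untested members in grey, 12790 tested and uncalled in blue, 258 positive calls in red and 2 negative calls in green. The dashed line is the median of the tested members, 0.31, and the cloud narrows around it as the level rises.

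In the plot of fold change against level, the lower edge of the red calls falls as the level rises, along with the SE. The 2 negative calls lie at the lower edge of the blue cloud for their levels.

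The authors' comparison called 260 members, 258 positive and 2 negative. That was 1.99% of the tested members (Wilson interval 1.77 to 2.25%), beside 1.67% of all tested regions. Positive calls made up 1.65% and negative calls 0.0192% of all tested regions. The share among members was thus near that of all regions. Members made up 42.8% of all 608 calls and 35.8% of all tested regions. The positive calls had a median log2 fold change of 1.07, from 0.72 to 2.12, and 159 reached at least 1. The 260 calls lay beside 236 genes and had a median level of 59.3 (20.3 to 261.2) and a median width of 3704 bases. The medians of all tested members were 37.7 and 2257 bases. Not every call was wide, since 34 were under 2000 bases. At an unadjusted p-value under 0.05, 2367 tested members passed, 18.1%, beside 18.4% of all tested regions. Of these, 2304 were positive and 63 negative, the latter beside 0.475% of all tested regions that were negative at that threshold.

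Most calls no longer passed once the general shift was subtracted. After centring, 16 members passed the adjusted threshold, 10 above the median and 6 below it, beside 0.0521% of all tested regions above and 0.0714% below. The deposited comparison had also called 12 of the 16. The other four passed only below the median and were assigned to FAM20C, ABI3BP, PTPRG and ATG4C. The median subtracted is itself a property of these libraries.

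Distance within the window made little difference to the calls. In bins of 10 kb from the nearest to the farthest, the median of the tested members was 0.33, 0.34, 0.30, 0.31, 0.30, 0.32, 0.29, 0.28 and 0.25. The share called ran from 1.34% at 30 to 40 kb to 2.40% at 20 to 30 kb, with no order by distance, and was 2.03% in the last bin. Outside the window, tested regions within 10 kb of a start had a median of 0.35 with 1.88% called, those at 100 to 500 kb 0.26 with 1.56% called, and those beyond 500 kb 0.27 with 0.818% called. The level of a member did not follow its distance either: the bin medians of level lay between 9.60 and 10.2.

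**Figure D2:**
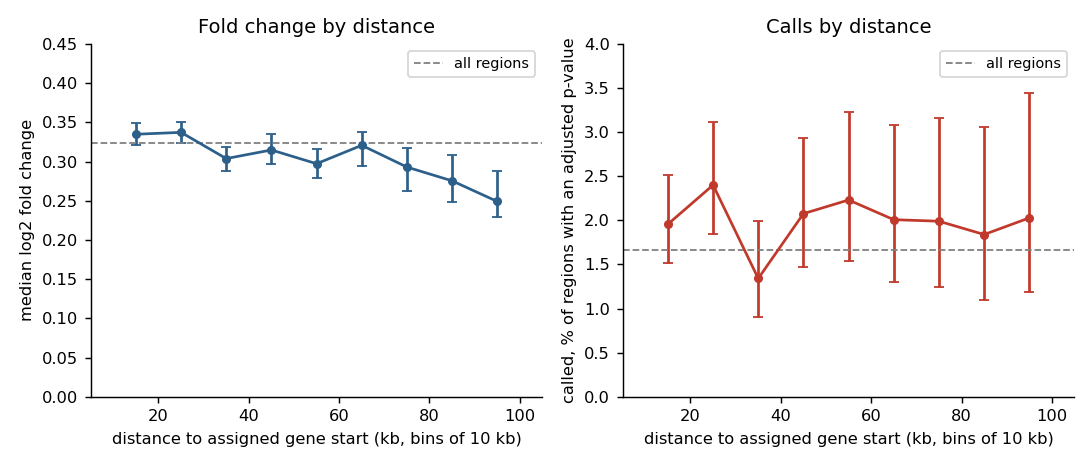
Median log2 fold change of tested members with its 95% interval over regions (left) and share called with its 95% Wilson interval (right), both against distance to the assigned start in bins of 10 kb; dashed lines are the values for all tested regions. The medians go from 0.33 in the nearest bin to 0.25 in the farthest, while the shares called show no order.

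In the plot by distance, the intervals of the bins at 30 to 40 kb, at 50 to 60 kb and from 70 kb on lie below the dashed line on the left, and those of the shares on the right overlap one another throughout.

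Width and level, by contrast, went with the chance of a call. None of the 3 tested members under 500 bases, 0.332% of those at 500 to 1000, 0.674% up to 2000, 1.97% up to 4000 and 5.38% above that were called. In 5 equal groups of all tested regions by level, the members called rose from 0.538% through 1.57, 2.21 and 3.44 to 4.03%. The smallest positive fold change called fell in the same order, from 1.24 through 1.05, 0.86 and 0.74 to 0.72. The median log2 fold change of the members hardly moved across these groups, at 0.32, 0.31, 0.31, 0.31 and 0.32. Regions at starts differed at equal levels: their median went from 0.57 in the weakest group to 0.30 in the strongest, and they were called in 0.668 to 1.29%. Stronger members were thus called more often at the same typical fold change.

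**Figure D3:**
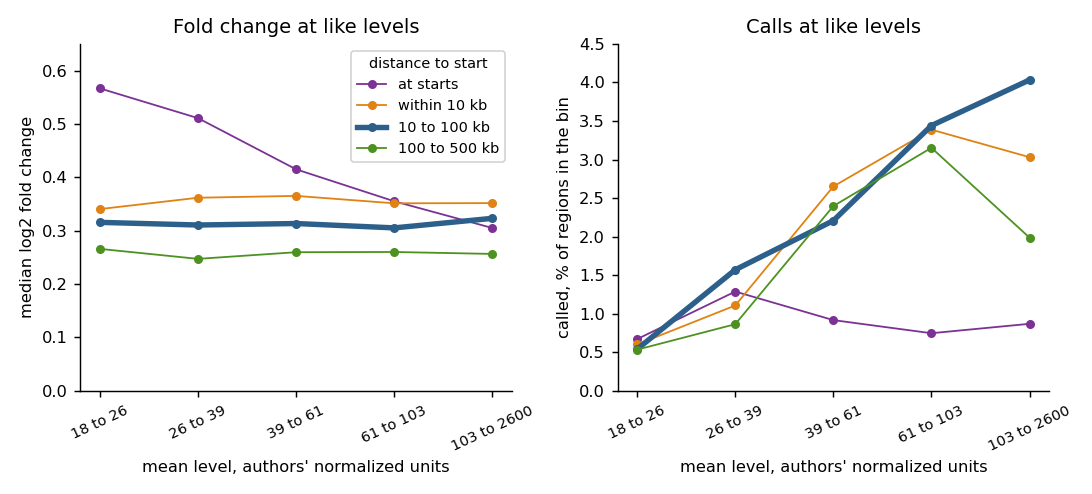
Median log2 fold change (left) and share called (right) in 5 equal groups of all tested regions by mean level (horizontal axis, authors' normalized units), with 1 line per distance class. The thick blue line of the members stays between 0.31 and 0.32 on the left and climbs from 0.538 to 4.03% on the right, while the purple line of starts falls on the left and stays under 1.3% on the right.

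In the plot by level, the 4 distance classes keep their order on the left except for regions at starts, whose line crosses those of the members and of regions within 10 kb in the strongest group.

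The largest positive calls lay beside genes of unrelated roles. The region beside GAS6, the secreted ligand of the TAM receptor kinases AXL, TYRO3 and MERTK, lay 49170 bases upstream (chr13:113913237-113914906) and had a log2 fold change of 2.12 ± 0.42 (SE) at a mean level of 25.8 in the authors' deposited table (DESeq2, with adjusted p = 0.000763). The start of GAS6 had 0.64 ± 0.32 at a level of 37.9 in the authors' deposited table and was not called. The nearest region toward GAS6, 15343 bases away, had 0.43 ± 0.46. That neighbour was too weak to be tested, so the call stood on 1 narrow region.

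SHANK1 encodes a scaffold of the postsynaptic density. Its called region (chr19:50702175-50704510, inside the gene) had 1.73 ± 0.29 at a level of 52.7 in the authors' deposited table (DESeq2, with adjusted p = 1.18e-05). The start of SHANK1 had 1.00 ± 0.49 in the authors' deposited table at a level of 13.2, too low for an adjusted p-value. The region and the start of SHANK1 were on the same side, and the start was not called. At GORAB, a golgin-binding protein, the values of region and start differed more: the region 84482 bases upstream had 1.70 ± 0.32 at a level of 33.3, and the start of GORAB 0.15 ± 0.22 at a level of 183.4 in the authors' deposited table.

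Other regions among the 12 largest were at 1.68 ± 0.31 beside ACTL9, an actin-like gene, and at 1.64 ± 0.32 beside NMUR1, a receptor of neuromedin U, in the authors' deposited table. Those beside SF3B2, a subunit of the spliceosome, and C2orf16 had 1.63 ± 0.40 and 1.56 ± 0.35 in the authors' deposited table. SF3B2 was also an example of the assignment passing over a nearer start, since its region lies inside PACS1. MED10, a subunit of Mediator, the coactivator that links enhancers to RNA polymerase II, had 1.50 ± 0.31 at the region and 0.70 ± 0.26 at its start in the authors' deposited table. NECAB2, a neuronal calcium-binding protein, PPP1R16B, a regulatory subunit of protein phosphatase 1, and POU5F1B, a retrogene of POU5F1, had 1.49 ± 0.39, 1.48 ± 0.39 and 1.47 ± 0.28 in the authors' deposited table. The levels of the regions named here lay between 20.3 and 54.0, so none was among the strongest members.

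The call with the smallest p-value was a stronger region. It lay inside GSTO2, an omega-class glutathione transferase, 26481 bases from the start (chr10:104295661-104303079), and had 1.26 ± 0.20 at a level of 136.7 in the authors' deposited table (DESeq2, with adjusted p = 5.21e-06). A second region of GSTO2, 1618 bases away, was also called, at 1.25 ± 0.33 and a level of 37.6 in the authors' deposited table. Both fragments gave the same value within their SE.

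Both negative calls lay in the far part of the window. The first lay inside FILIP1L and CMSS1, which overlap (chr3:100044413-100050035), 64479 bases from the start, and had -0.99 ± 0.25 at a level of 111.8 in the authors' deposited table (DESeq2, with adjusted p = 0.0158). A region 683 bases from that of FILIP1L had -0.19 ± 0.24 at a level of 74.6 and one 642 bases away on the other side -0.71 ± 0.86 at a level of 3.51 in the authors' deposited table, and neither was called, the weaker being untested. The second lay 89575 bases upstream of KCTD3, a potassium channel tetramerisation domain protein (chr1:215473527-215477817), and had -0.94 ± 0.27 at a level of 51.7 in the authors' deposited table (DESeq2, with adjusted p = 0.0392). The start of KCTD3 had 0.18 ± 0.21 at a level of 247.3 in the authors' deposited table, opposite in sign. After centring both negative regions passed, with adjusted p-values of 0.00142 and 0.00945.

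Of the 4 regions that passed only after centring, that beside ATG4C, a protease of the autophagy pathway, had -1.07 ± 0.32 in the authors' deposited table, where its adjusted p-value was 0.0504. PTPRG, a receptor tyrosine phosphatase, had -0.99 ± 0.32, ABI3BP, an extracellular matrix protein, -0.74 ± 0.25, and FAM20C, the Golgi kinase of secreted proteins, -0.59 ± 0.22 in the authors' deposited table. FAM20C had the highest level of them, 212.9.

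Some genes had several called members. Called members lay beside 236 genes, of which 217 had 1, 19 had 2 or more and 4 had 3 or more. The 4 genes are NEK2, CUL2, GRHL3 and PDE2A. Of all their calls, 1 passed after centring, the region of NEK2 with the largest fold change (adjusted p = 0.0237 from the DESeq2 values), while the others had centred adjusted p-values of 0.153 to 0.808. NEK2, a kinase that splits centrosomes at the entry to mitosis, had 12 members, of which 6 were tested and 4 called. The 4 calls lay downstream at 40647, 34570, 24730 and 19888 bases, inside a stretch from 211632235 to 211655731 on chromosome 1. Their log2 fold changes were 1.22 ± 0.26, 1.33 ± 0.23, 1.07 ± 0.27 and 1.06 ± 0.26 in the authors' deposited table. The strongest of the NEK2 calls, at a level of 120.4, is the one that holds the NTRAS start shown above. The start of NEK2 had 0.17 ± 0.22 at a level of 111.1, and a member 58949 bases upstream had -0.44 ± 0.25 at a level of 120.8 in the authors' deposited table. Regions of equal strength on the 2 sides of NEK2 thus had fold changes of opposite sign, and the difference between them was not tested.

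CUL2, the cullin of the VHL ubiquitin ligase, had 9 members, all downstream and all positive. Its 3 calls, at 82220, 46430 and 30442 bases, had 1.25 ± 0.27, 0.96 ± 0.28 and 0.90 ± 0.26 in the authors' deposited table, and its start 0.32 ± 0.27. The other tested members of CUL2 had 0.92 ± 0.32 and 0.71 ± 0.30 in the authors' deposited table and were not called. All 5 tested members of CUL2 lay above its start.

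GRHL3, a grainyhead-like factor of epithelial differentiation, had 3 calls upstream, at 50016, 38951 and 32066 bases, with 1.08 ± 0.23, 0.81 ± 0.23 and 0.94 ± 0.24 in the authors' deposited table. Another called region of GRHL3, not a member, lay within 10 kb downstream of the start with 1.36 ± 0.31 in the authors' deposited table. No region overlapped the start of GRHL3 itself, but regions lay 431 bases upstream and 142 bases downstream of it. They had 0.92 ± 0.63 and 0.78 ± 0.58 in the authors' deposited table and were too weak to be tested. PDE2A, a phosphodiesterase stimulated by cGMP, had calls at 99801, 39204 and 30089 bases downstream, with 1.05 ± 0.22, 0.86 ± 0.22 and 1.11 ± 0.29 in the authors' deposited table. Its other members, 4 in number, were too weak to be tested, and no region overlapped the start of PDE2A either. The farthest PDE2A call, at a level of 179.9, is the region that holds the LINC01537 start.

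**Figure D4:**
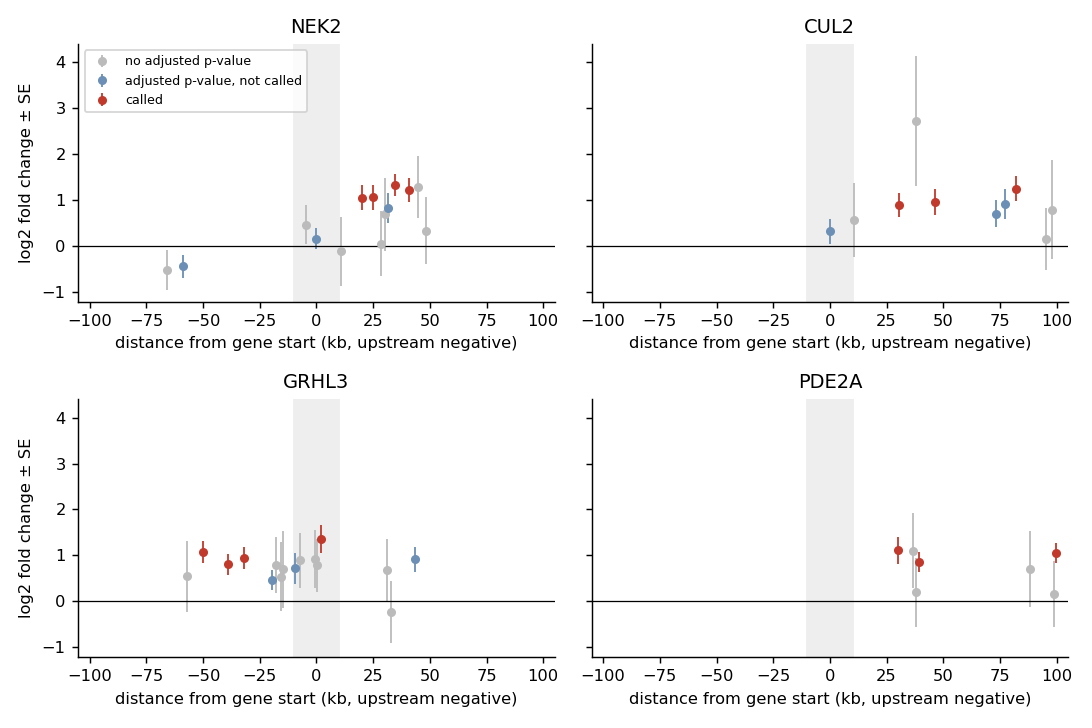
Log2 fold change with its SE (vertical axis) against signed distance from the assigned start in kb (horizontal axis, upstream negative) for every region within 100 kb assigned to NEK2, CUL2, GRHL3 and PDE2A, with untested regions in grey, tested in blue and called in red. The grey band marks the 10 kb on each side of the start. The 4 NEK2 calls lie together downstream, and the 2 regions farthest upstream lie below 0.

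The plot of the 4 genes shows long error bars on the grey points, which are the narrow regions of low level, and short ones on the calls.

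Genes with the most members were not those with the most calls. The 39439 members were spread over 10608 genes (for regions listed with several genes, the nearest), with a median of 2 and a maximum of 28. A single member was found for 3323 genes and 10 or more for 778. LHFPL2, PTPN1 and TNRC6A had 28 members each and MBNL1 and PTPRJ 26 each. PTPN1, the tyrosine phosphatase PTP1B, had 14 tested members, all positive, as were 87.3% of all tested regions. Their median was 0.59 with 2 calls, and 6 passed an unadjusted p-value under 0.05 from DESeq2. Those 6 lay 45463 to 93411 bases upstream. Between them was a called region too wide to be a member, with 0.95 ± 0.20 in the authors' deposited table. Tested members of PTPN1 closer to the start or downstream had 0.08 to 0.44. The remaining genes named here had no call: the medians of their tested members were 0.15 for LHFPL2, 0.13 for TNRC6A, a component of RNA silencing, 0.18 for MBNL1, a splicing factor, and 0.19 for PTPRJ, a receptor phosphatase. Their starts had 0.03 ± 0.31, 0.18 ± 0.23, 0.23 ± 0.19 and 0.26 ± 0.22 in the authors' deposited table. The start of PTPN1 had 0.30 ± 0.20 in the authors' deposited table.

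Neighbouring members had like fold changes. Between tested members next to each other, Pearson's r of the log2 fold changes was 0.62 at a gap under 1 kb (n = 428), 0.55 at 1 to 2 kb (n = 525), 0.47 at 2 to 5 kb (n = 1107) and 0.44 at 5 to 10 kb (n = 1197). It went on falling through 0.35 (n = 1403), 0.24 (n = 2165) and 0.17 (n = 1803) to 0.06 over 100 kb (n = 4398). All pairs come from the same 4 libraries and share their scaling, so these values describe the table and carry no p-value. Members were often close together: the median gap to the nearest region of any class was 3488 bases, and 58.2% of members had one within 5 kb, while 955 had none within 50 kb. Adjacent fragments are therefore not independent examples of a change.

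Members were less alike to the start of their gene, 10 to 100 kb away, than to a close neighbour. Across 8531 tested members whose assigned gene had a tested start region, Pearson's r between the member and the start was 0.20, with 0.27 at 10 to 20 kb (n = 1894), 0.17 at 20 to 50 kb (n = 3687) and 0.20 at 50 to 100 kb (n = 2950), in the same libraries. Between neighbouring members at the same 3 ranges of gap, Pearson's r was 0.35, 0.24 and 0.17. At like distances the values to start and neighbour thus lay closer, and the differences were not tested. Of 165 positive calls with a tested start, 164 had a positive start, as had 98.1% of all tested starts. In 12, beside 10 genes, the start region was itself called, and 0.860% of all tested starts were. The median at these starts was 0.45, against 0.35 beside all tested members and 1.05 in the called members themselves. The called member was above its start in 160 of 165, which the choice of called members favours.

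**Figure D5:**
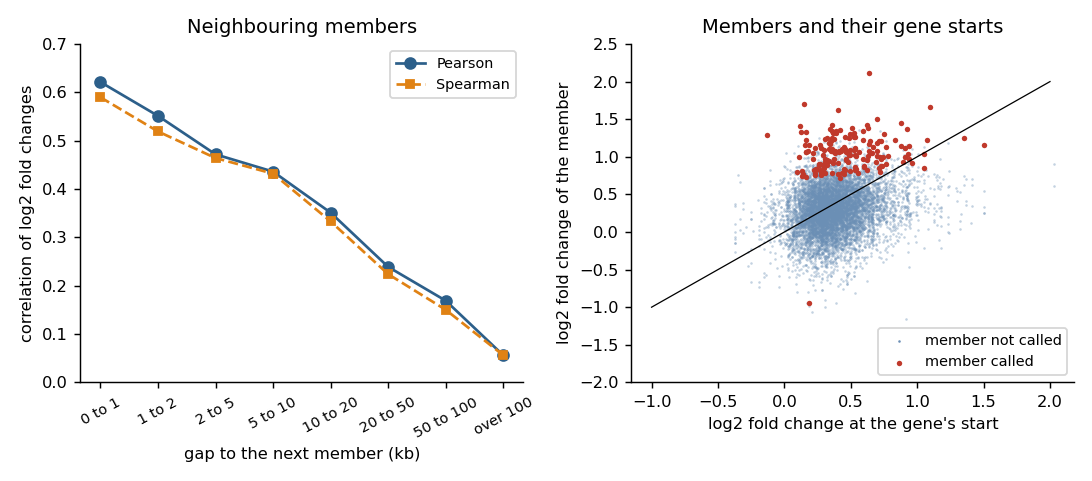
Left, correlation of log2 fold changes between tested members next to each other (Pearson in blue, Spearman in orange) against the gap between them in kb, falling from 0.62 to 0.06. Right, log2 fold change of each tested member (vertical axis) against that at the start of its assigned gene (horizontal axis), with called members in red and the line of equal values in black.

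In the plot of neighbours and starts, most red points lie above the line of equal values, and the starts below them run mainly from 0 to 1.

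Merging of members within 10 kb into runs gave a like picture for isolated and crowded regions. Members standing alone numbered 10365, of which 3005 were tested, with a median of 0.35 and 1.70% called. Members in runs of 2 to 3 had 0.32 and 1.90% called, those in runs of 4 to 7 had 0.30 and 2.32%, those in runs of 8 to 15 had 0.30 and 2.00%, and those in runs of 16 or more 0.31 and 2.08%. All are near the 1.67% of all tested regions.

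Position relative to genes was read from RefSeq. The assigned gene matched for 38662 members, 98.0%. Where the strand could be used, 10750 members lay upstream of the assigned start and 20175 downstream, 65.2%. Upstream members had a tested median of 0.33 with 2.19% called and downstream members 0.31 with 1.92%. In all, 21640 members, 54.9%, lay in the body of a protein-coding gene, and for 94.2% of those the assigned gene was a host. Members inside gene bodies had a tested median of 0.29 with 1.78% called, and members outside protein-coding gene bodies 0.34 with 2.23% called. Exons and introns were not resolved, because no transcript models were used here.

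Some members were not distal to every start. A protein-coding start of the RefSeq table lay within 10 kb of 2786 of 37776 members that could be placed, 7.38%. The 1663 members on chromosome 8 could not be placed, since the RefSeq starts used held no coding start there. They count below as over no coding start. Of all 39439 members, 1342, or 3.40%, overlapped a coding or a noncoding start. Such members were stronger, with a median level of 47.4 against 9.54 for members over no start, and per kb 20.6 against 14.8. The median log2 fold change was 0.40 over the 705 with a noncoding start only, 0.36 over the 637 with a coding start and 0.26 over the other members. Among the tested members of these sets it was 0.40, 0.35 and 0.31. Of the other members 31.4% were tested, against 80.6% of those over a start. Calls were not concentrated there: 7.69% of called and 8.28% of tested members overlapped a start.

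The strongest members had fold changes near the median of all members. The 10 with the highest levels were assigned to SEPT9, a septin of the cytoskeleton, RASA3, a RAS GTPase-activating protein, NBPF1, CROCC, the rootletin of centrosomes, ANXA2R with 2 regions, CNIH3, CAPRIN2, MCMDC2 and ZNF462. The SEPT9 region (chr17:77317947-77325754) had a level of 364.5, or 46.7 per kb, and 0.31 ± 0.21 in the authors' deposited table, and it overlaps a RefSeq coding start. NBPF1 had the highest level per kb of them, 94.8, and 0.33 ± 0.20 in the authors' deposited table. NBPF1 belongs to a family of near-identical copies, and how the authors treated reads that fit several copies is not given in the sources used here. Log2 fold changes of the 10 ran from 0.18 to 0.58, the largest being CAPRIN2 at 0.58 ± 0.22 in the authors' deposited table, and none was called.

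Gene lists for this cell line and treatment gave few calls. Of 27 genes of fatty acid oxidation or PPAR target genes, 19 had members, 118 in all, of which 39 were tested. Their tested median was 0.50, against 0.32 over all tested regions, and 97.4% were positive, against 87.3% of all tested regions. Without adjustment, 11 had p-values under 0.05, all positive, or 28.2% of the list's tested members against 18.4% of all tested regions, and 2 were called. The calls were beside HADHB, a subunit of the mitochondrial trifunctional protein, with 1.27 ± 0.27 at a level of 52.6, and ACOT7, an acyl-CoA thioesterase, with 0.77 ± 0.22 at a level of 203.0 in the authors' deposited table. The genes of sterol and fatty acid synthesis had 13 tested members with a median of 0.22 and 0 calls, and 2 members passed an unadjusted p-value under 0.05 from DESeq2. The strongest, beside ACACA, the acetyl-CoA carboxylase that commits acetyl-CoA to fatty acid synthesis, had 0.12 ± 0.22 at a level of 131.9 in the authors' deposited table. That ACACA region overlaps a RefSeq coding start. The median of the oxidation list was thus higher than that of the synthesis list, a description of 39 and 13 regions that share libraries and partly neighbour each other.

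Genes of the histone acetylation machinery had 61 members, of which 27 were tested, with a median of 0.25 and 2 calls. One was beside ACSS2, the enzyme that makes acetyl-CoA from acetate, with 1.05 ± 0.31 at a level of 39.2, 14011 bases from the start in the authors' deposited table. A second ACSS2 member, at a level of 145.8 and 29456 bases from the start, had 0.25 ± 0.21 in the authors' deposited table and was not called. Regions of the same gene thus differed, and the difference was not tested.

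Lineage genes of melanocytes had 53 members, of which 20 were tested, with a median of 0.21, 70.0% positive and 0 calls, and 2 passed an unadjusted p-value under 0.05 from DESeq2. The strongest, 86190 bases upstream of a MITF start, had 0.30 ± 0.23 at a level of 163.0 in the authors' deposited table. MITF is the master regulator of pigment cells. Genes of the dedifferentiated melanoma state had 60 tested members of 141, with a median of 0.23 and 1 call, beside JUN. Genes of neural crest and pioneer factors had 33 tested of 101, with a median of 0.31 and 0 calls, and 3 passed an unadjusted p-value under 0.05 from DESeq2. The strongest neural crest member, beside SOX5, had 0.04 ± 0.21 at a level of 268.2 in the authors' deposited table.

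Genes of AP-1 and MAPK output had 170 members, of which 73 were tested, with a median of 0.40 and 2 calls. Without adjustment, 17 had p-values under 0.05, 16 of them positive, which is 23.3% of the tested members of the list beside 18.4% of all tested regions. JUN, a subunit of AP-1 and a member of both lists, had a called region 95782 bases upstream with 0.79 ± 0.23 at a level of 162.0 in the authors' deposited table. DUSP5, a nuclear phosphatase of ERK, had one 77219 bases away with 1.08 ± 0.31 at a level of 35.8 in the authors' deposited table. The strongest member of the list, beside MYC, had 0.33 ± 0.21 at a level of 180.4 in the authors' deposited table and was not called. Genes of the TGF-beta and BMP pathway had 57 tested of 157, with a median of 0.34 and 1 call, beside ID3, an inhibitor of basic helix-loop-helix factors, with 0.99 ± 0.28 at a level of 54.3 in the authors' deposited table. SMAD3, the signal transducer of that pathway, had the strongest TGF-beta member, at a level of 199.8 with 0.34 ± 0.23 in the authors' deposited table. That SMAD3 region overlaps a RefSeq coding start. The list calls named here did not pass after centring. Each of the 8 lists held 0 to 2 calls, too few to set against the 1.67% of all tested regions. At an unadjusted DESeq2 p-value under 0.05, the lists other than oxidation and AP-1 lay below the 18.4% of all tested regions. Their shares were 17.5% for TGF-beta and BMP, 16.7% for the dedifferentiated state, 15.4% for synthesis and 14.8% for histone acetylation. Melanocyte lineage genes had 10.0% and neural crest and pioneer factors 9.09%, and these differences were not tested.

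MicroRNA hairpins lay inside 44 members. Of 1562 hairpins in the RefSeq table, 51 were inside a member. Of the 44 members, 34 were tested and 31 of those were positive, with a median of 0.27. Over all tested regions 87.3% were positive, the median was 0.32 and 1.67% were called. Of the 34, 1 was called, the region beside CEMIP, a hyaluronan-binding protein, 60149 bases from its start (chr15:80839491-80845016). That region holds MIR549A and had 1.00 ± 0.26 at a level of 81.6 in the authors' deposited table. Its DESeq2 adjusted p-value was 0.0209. A strong member assigned to GPC5 (chr13:91346395-91353188) holds the whole MIR17 cluster of 6 hairpins, an oncogenic microRNA cluster. The GPC5 region had 0.26 ± 0.21 at a level of 217.5 in the authors' deposited table and was not called. Its mature sequences from RefSeq are shown because they define the cluster's seed groups, with the seed, bases 2 to 8, in capitals, and those of MIR549A follow.
hsa-miR-17-5p: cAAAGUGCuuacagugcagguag
hsa-miR-20a-5p: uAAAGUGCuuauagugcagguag
hsa-miR-18a-5p: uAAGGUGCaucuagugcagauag
hsa-miR-19a-3p: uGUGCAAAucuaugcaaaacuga
hsa-miR-19b-3p: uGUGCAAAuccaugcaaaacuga
hsa-miR-92a-3p: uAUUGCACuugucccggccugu
hsa-miR-549a-3p: uGACAACUauggaugagcucu
hsa-miR-549a-5p: aGCUCAUCcauaguugucacug
The first pair share the seed AAAGUGC, miR-19a and miR-19b share GUGCAAA, and miR-18a and miR-92a each have their own. The table measures acetylation of the locus and not the level of any microRNA.

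Chromosomes differed modestly. In the 23 chromosomes with at least 100 tested members, the median went from 0.26 on chromosome 18 to 0.46 on chromosome 19. Chromosome 19 was also highest at gene starts, with 0.40, so its distal regions and its starts both had the highest median. Chromosome 1 had the most calls, 46 of 1791 tested members or 2.57%, and also the most tested members. Chromosome 21, with the fewest tested members, had 0 of 114 in the DESeq2 comparison. The share called was highest on chromosome 20, at 2.97%, beside 1.99% of all tested members and 1.67% of all tested regions.

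Values at the limits of the rule were as follows. Just inside the near limit was a region beside SMU1 at 10001 bases, with 1.09 ± 1.11 at a level of 2.88 in the authors' deposited table, and just outside one beside HOXD1 at 10000 bases, with 0.28 ± 0.43 at a level of 15.5. Just inside the far limit was a region beside PLCXD3 at 99989 bases, with 0.70 ± 0.72 at a level of 4.57 in the authors' deposited table, and just outside one beside FGF3 at 100002 bases, with 0.65 ± 0.54 at a level of 9.73. At the width limit, a region of 7998 bases beside SGCE was inside, with -0.04 ± 0.22 at a level of 160.4 in the authors' deposited table, and one of 8011 bases beside ITCH outside, with 0.22 ± 0.20 at a level of 182.9. None of these regions was called.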

How the data were processed

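Files were those of the submitters. Per the submitters' processing notes, the tools were Trim Galore, cutadapt, FastQC, Bowtie2, Picard, MACS2, featureCounts, DESeq2 and bedtools 2.29.1, with build hg38; their settings and roles are not given in the sources used here. In the authors' deposited table the mean level is a signal normalized by the authors, and the fold change and its SE are on the log2 scale, per the file headers. The score is the deposited statistic, which equalled fold change over SE. The p-value is the authors' deposited value, and a deposited adjusted p-value of 1 below the lowest tested level was read as not computed. Distance is in bases, per the file headers.

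Lines repeating a region were merged to its nearest gene, and counts are of distinct regions. Strand, gene bodies, starts and sequences came from the RefSeq tables (GRCh38.p14). Centring subtracted the tested median of all regions, took a two-sided normal p-value from the authors' SE and repeated the Benjamini-Hochberg adjustment. Shares carry 95% Wilson intervals and medians 95% order-statistic intervals, both over regions. The scripts (Python 3.11.15, pandas 2.3.3, NumPy 2.4.6, SciPy 1.17.1, matplotlib 3.10.9) were tested on simulated data. The planned edgeR fit was not run, since the table has no value per library; the number of single-library columns left out was 0. The planned motif search in the centre of each region was replaced by the 250 bases upstream of RefSeq starts, since no genome was used here.

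Named were the 12 largest and the most negative calls, the 5 with the smallest p-values, called and strongest members of each gene list, the 5 genes with most members, genes with 3 or more calls, the 10 strongest members and regions at the limits of the rule. Regions passing after centring, over starts or with microRNAs were chosen after their values were seen. Members and gene lists were chosen with earlier results of these data known. Values of some single regions under this rule are not reported here.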

Additional observations from a re-analysis of the deposited data

How the results depend on the processing

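The count of 260 called members changed by more than 1.5 times under 7 alternatives: it was 55 at a threshold of 0.01, 159 where the log2 change also had to reach 1 in size, 107 with adjustment over all distinct regions, 16 after centring, 169 with distances up to 50 kb, 34 with widths under 2000 bases and 163 with 1 region per gene. Limits on distance, width and regions per gene leave out regions by construction. The 1 region kept per gene was that of the highest level, so this alternative also selects strong regions. It was 201 above 20 kb, 294 with no limit on width and, in alternatives chosen after seeing the data, 243 where the nearest RefSeq coding start was also over 10 kb away, 240 over no RefSeq start and 250 without chromosome 19. The 243 and 240 include calls on chromosome 8, which were not checked against coding starts. The median log2 fold change of 0.26 became -0.059 after centring, by construction, and the share positive went from 71.4 to 44.4%. The median was 0.31 at levels of at least 10, 0.32 at levels of at least 100, 0.31 among tested regions, 0.27 up to 50 kb, 0.25 under 2000 bases, 0.33 with 1 region per gene and 0.26 over no start. The share positive was 81.7, 92.2, 84.0, 71.9, 68.4, 81.3 and 70.7% in the same order. Of 37 named calls, 26 remained past the threshold with adjustment over all regions and 11 after centring. No sign could change, since the median subtracted was 0.32 and the smallest positive call 0.72. No paired analysis was possible because the table holds no value per library, and leaving out each replicate was not run for the same reason. Weak regions limit the calls, since none below a level of 18.44 was tested.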
